A study of Mus musculus with 18 samples.

Results

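The transcriptomes of dendritic cells (DCs) inside collagen gels were compared with those of DCs kept without a gel. The comparison took the 12 collagen libraries of the series against its 6 suspension libraries, that is, all 18 libraries, and every gene that could be tested, from the most weakly to the most strongly expressed. The cells were grown from bone marrow of wild-type C57Bl6/J mice aged 8 to 12 weeks with GM-CSF. LPS at 200 ng/ml was added on day 8 for 24 hours, so cells of every group had been matured. The collagen groups were embedded in bovine collagen at 1.7, 2.6, 3.5, or 4.4 mg/ml, with 3 replicates at each density. The suspension cells sat in the same kind of chamber without collagen, in 2 groups of 3 replicates whose titles read plus and without CCL19. The methods place the isolation of the gels 5 hours after the CCL19 gradient was introduced and give no separate time for the suspension groups. For the suspension libraries, the library names state the opposite CCL19 condition to the titles, so both groups were pooled and no CCL19 effect is given. The titles of all collagen groups name a CCL19 source, while by either naming only some suspension libraries had CCL19. The comparison therefore mixes the gel with CCL19, and their parts cannot be told apart.

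Mature DCs are antigen-presenting cells that leave inflamed tissue and follow CCL19 and its sister chemokine CCL21, through the receptor CCR7, to the lymph node. On the way they squeeze through fibrillar matrix of which type I collagen is the main component. A gel of collagen fibers surrounds a cell on all sides, deforms it as it moves, and also changes what it adheres to and how nutrients reach it. Cells respond to such surroundings and to stress with families of genes that are controlled together, among them chaperones, antioxidant enzymes, immediate early transcription factors, and inflammatory mediators.

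Bone marrow cultures with GM-CSF also hold other myeloid cells. Markers of mature DCs such as Ccr7, Ccl22, and Fscn1 were among the strongly expressed genes, but the DC list also holds markers of DC subsets that were weak or near 0, among them Cd209a (46 counts over all libraries), Clec10a (1.66 to 6.35 CPM, counts scaled to the size of the library), Xcr1 (0.715 to 10.0 CPM), and Flt3 (3.04 to 24.4 CPM). Ccr7 ranged from 2342 to 6425 CPM in suspension with a median of 3874, and from 3132 to 5244 with a median of 4082 in collagen. It did not pass the test (log2 fold change 0.10, SE 0.18, adjusted p = 0.731). Each adjusted p given here comes from the quasi-likelihood F-test of edgeR with Benjamini-Hochberg adjustment over all genes tested, and SE is the standard error of a log2 fold change. Summed over 26 DC markers, expression ran from 38014 to 111523 CPM in suspension and from 50613 to 123604 CPM in collagen. The sums over 19 macrophage markers (1556 to 10380 CPM and 2022 to 11067 CPM) and over 16 neutrophil markers (1773 to 19389 CPM and 3170 to 8570 CPM) were lower and overlapped between the groups. The sum over 11 eosinophil markers ran from 121 to 1385 CPM in suspension and from 14.9 to 171 CPM in collagen. Within each of the 3 replicates, the eosinophil sums of all 4 collagen libraries lay below those of both suspension libraries. None of the 11 eosinophil markers was at 0 in every library. In these bulk samples fewer cells of a type and less RNA per cell cannot be told apart.

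**Figure D1:**
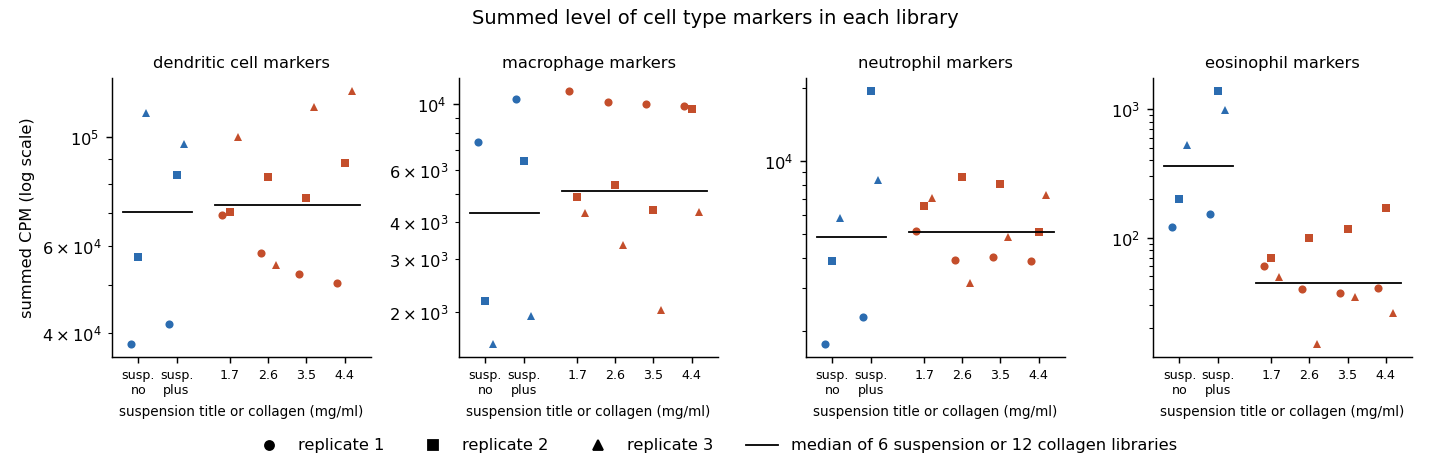
Summed CPM (log axis) of the DC, macrophage, neutrophil, and eosinophil marker lists in each of the 18 libraries, with suspension in blue (groups titled without and plus CCL19), collagen in red by density, symbols for replicates, and lines at the group medians. Eosinophil markers run from 121 to 1385 CPM in suspension and reach no more than 171 CPM in collagen. The ranges of all lists shown overlap between the groups, but the eosinophil sums do not overlap within any replicate.

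Total counts ranged from 13062944 to 28059839 per library. At these depths 3 counts correspond to 0.107 to 0.230 CPM, a limit that covers counting error only. The library names give 1 date and 1 sequencing lane for each replicate number, and the deviations of such libraries from the group means had a mean r of 0.43 over genes, which are not independent replicates. The replicate number was fitted as a block, a choice set with the comparison and not by these correlations. Reads of Xist were found in every library of replicates 1 and 2 (29.3 to 229 CPM) and in none of replicate 3, whose libraries held Y-linked reads instead, although the methods name male mice. Each replicate holds every group once, so this difference is balanced over collagen and suspension. The labels call the replicates biological without saying whether they came from separate animals, so p-values measure the spread between these samples.

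Of 29875 genes in the table, 13844 passed the filter on low counts and were tested. At a false discovery rate (FDR) of 0.1, 4823 genes (34.8%) differed between collagen and suspension. In collagen 2158 genes (15.6%) were higher and 2665 genes (19.3%) were lower. The change was at least 2-fold in 659 of the higher and 820 of the lower genes. Of the called genes, 94.2% changed in the same direction in 3 of 3 replicates. The genes were called on these same replicates, so this share is a description and no independent support. Without the replicate block 2790 genes were called, 1077 higher and 1713 lower. All 12 collagen libraries lay above all 6 suspension libraries in 70 genes (0.506%) and below them in 210 genes (1.52%). Because replicates differed in level, a second description was added after the values by library had been seen. Within each of the 3 replicates, the 4 collagen libraries all lay above both suspension libraries in 336 genes (2.43%) and below both in 580 genes (4.19%).

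The direction of change differed with expression level. Levels were compared between genes as CPM per kilobase of exon, averaged over the 18 libraries. Of these, 12 are collagen libraries, so a rise in collagen also raises a gene's level and a fall lowers it. The classes are therefore not independent of the change. Among the 500 genes at 100 CPM per kilobase or more, 165 (33.0%) were higher in collagen and 14 (2.80%) were lower. Among the 3212 genes from 10 to under 100, 776 (24.2%) were higher and 507 (15.8%) lower. The order was turned around below that. From 1 to under 10, 886 of 5949 genes (14.9%) were higher and 1348 (22.7%) lower, and under 1, 330 of 4180 genes (7.89%) were higher and 796 (19%) lower. The median log2 fold change of all genes in a class went from −0.15 in the lowest to −0.01, 0.08, and 0.29 in the highest. Over 16 settings of the analysis, the share of higher genes ran from 12.2 to 38.8% in the top class and from 3.68 to 9.86% in the bottom class. The share of lower genes ran from 1.80 to 3.8% in the top class and from 9.91 to 26.7% in the bottom class. The growth in the share of higher genes did not hold over all classes in every setting. With the suspension group titled plus CCL19 as the only control, it was 5.26, 15.2, 17.7, and 12.8% from the lowest class to the highest. Without the replicate block it was 12.2% in both upper classes.

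**Figure D2:**
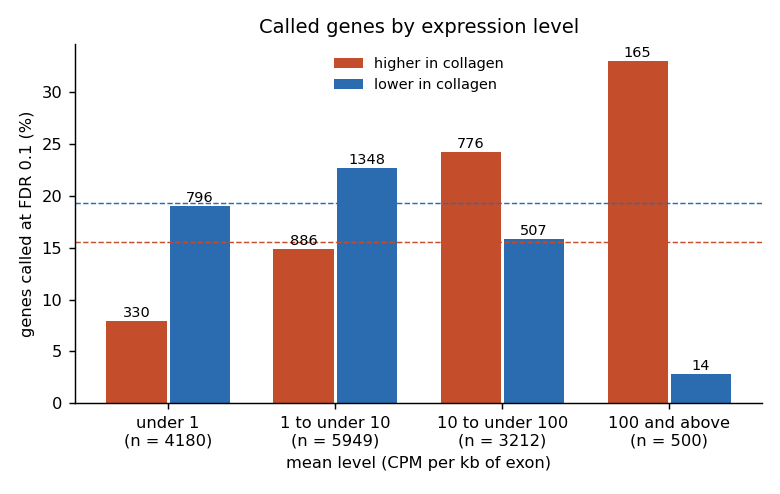
Percent of tested genes that were higher or lower in collagen at an FDR of 0.1 in each of 4 classes of mean expression (CPM per kilobase of exon), with numbers of genes on the bars and the shares over all tested genes as dashed lines. With both suspension groups and the block, the share of higher genes grows from 7.89% in the weakest to 33.0% in the strongest class. The share of lower genes falls from 19 to 2.80%.

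The sizes of the called changes ran the other way. The higher genes had a median log2 fold change of 1.56 in the lowest class and 0.77, 0.62, and 0.61 in the classes above. The lower genes had medians of −1.15, −0.74, −0.58, and −0.63. Weakly expressed genes pass the test only with a large change, since their standard errors are larger, so these medians describe the called genes and not all genes of a class. The plot of fold change against level shows the same genes 1 by 1.

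**Figure D3:**
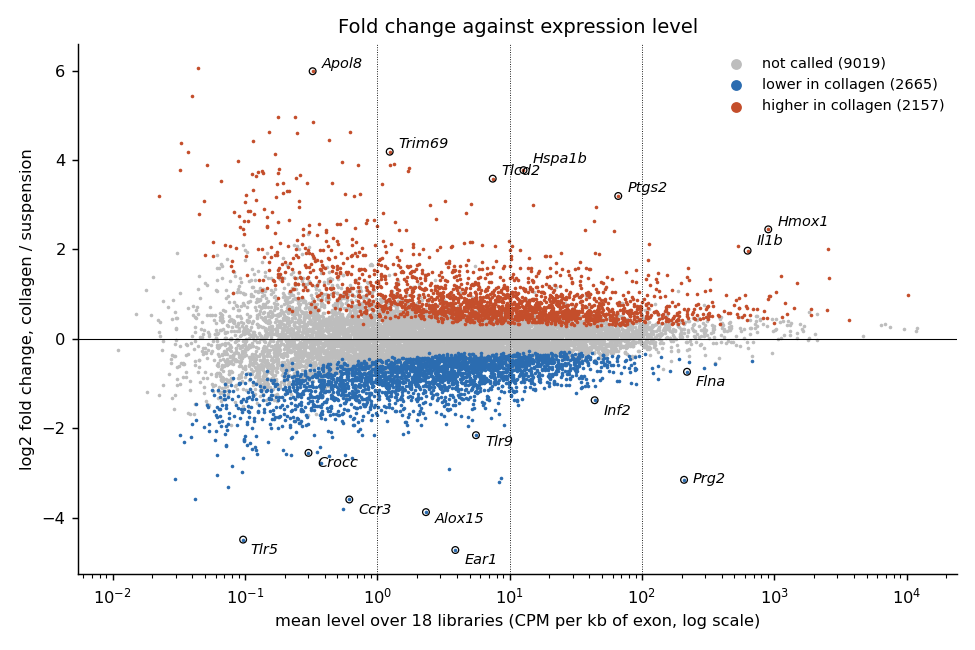
Log2 fold change of collagen against suspension (vertical axis) against mean expression in CPM per kilobase of exon (horizontal log axis), 1 point per tested gene with an exon length, with called genes in red (higher) or blue (lower), dotted lines between the level classes, and some named genes labelled. Above 100 CPM per kilobase, 165 called points lie above 0 and 14 below.

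Genes that fell were longer and richer in G and C than genes that rose. The median GC content was 47.4% in the higher genes, 52.99% in the lower genes, and 50.3% in all tested genes. The median exon length was 3827.5 bases in the higher, 5017 in the lower, and 4059 in all tested genes. With offsets for GC content and exon length in the fit, 2662 genes were higher and 2552 lower. Of these 5214 genes, 4016 were among the 4823 called without the offsets, all in the same direction. The part of library preparation or RNA quality in these differences was not tested.

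The estimates were also taken for each density apart. Among the 2158 higher genes, the estimate against suspension was positive at all 4 densities in 2101 (97.4%), and among the 2665 lower genes it was negative at all 4 in 2601 (97.6%). In order of increasing density, the medians over the higher genes were 0.55, 0.84, 0.75, and 0.93. The medians over the lower genes were −0.60, −0.77, −0.84, and −0.96. These 4 comparisons share the 6 suspension libraries and the genes were selected on their mean, so the values are a description and were not tested. Without the 4.4 mg/ml libraries 4373 genes were called, of which 3915 are shared with the calls over all libraries.

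Heat shock proteins are chaperones that refold or dispose of damaged proteins. Of 21 tested members, 13 were higher (61.9%, compared with 15.6% of all tested genes) and none was lower, with a median log2 fold change of 0.55 compared with 0.008 for all tested genes. Hspa4l, an HSP110-family partner of HSP70 (chromosome 3, 40744495 to 40796103 of GRCm38), ranged from 16.1 to 50.7 CPM with a median of 28.8 in suspension and from 77.7 to 459 CPM with a median of 258 in collagen. The groups did not overlap. The log2 fold change was 3.00 (SE 0.30, adjusted p = 5.99e-06, edgeR), an 8.01-fold rise. Hspa1b and Hspa1a, the stress-inducible HSP70 pair that lies side by side on chromosome 17, rose by 3.77 (SE 0.36, adjusted p = 5.55e-06) and 2.81 (SE 0.28, adjusted p = 5.99e-06) on the log2 scale in the same edgeR test. Hspa1a went from 1.00 to 4.21 CPM in suspension to 6.36 to 56.2 CPM in collagen without overlap. Hspa1b ranged from 1.07 to 8.73 CPM in suspension and from 6.55 to 124 CPM in collagen, overlapping over the whole set but not within any replicate. The sequences of this pair are nearly identical and the treatment of reads that match both is not stated, so the split between them is uncertain. The J-domain protein Dnajb4, which hands clients to HSP70, rose by 1.51 (SE 0.19, adjusted p = 5.62e-05, edgeR), and the constitutive HSP70 Hspa8 rose by 0.90 (SE 0.16, adjusted p = 4.74e-04, edgeR). Hsf1, the transcription factor that drives the heat shock response, had a median of 29.6 CPM in suspension and 28.3 CPM in collagen (log2 fold change −0.13, SE 0.13, adjusted p = 0.487, edgeR).

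The promoters of the heat shock genes were searched for the element that HSF1 binds, in the 250 bases before each transcript start in RefSeq (GRCm38.p6) and on both strands. The motifs were chosen after the lists had been seen. The 3-unit element (GAANNTTCNNGAA or TTCNNGAANNTTC), searched first, was found in 0.466% of 32851 promoters and in 2 of 16 matched members of the list, Hspd1 and Hspe1, neither of which is among the 10 matched members that rose. The shorter 2-unit element (GAANNTTC or TTCNNGAA), searched second, was found in 12.8% of all promoters and 12.2% of the tested genes. It was present in 9 of the 16 members and in 6 of the 10 that rose. The windows of Hspd1 and Hspe1 overlap on opposite strands and hold the same marked stretch, and those of Hspa1b and Hspa1a are nearly identical. The counts of members with either element are therefore not counts of independent sites. Every 3-unit match contains a 2-unit match. A match describes the letters only. The windows of 3 members that rose are shown to give the setting of the element, whose letters are in capitals. They lie at chr17:34959239-34959488 (minus strand) for Hspa1b, chr17:34972157-34972406 (minus strand) for Hspa1a, and chr3:152193846-152194095 (minus strand, 1 of 2 starts) for Dnajb4, and the element begins 104, 104, and 14 bases before the transcript start.
Hspa1b: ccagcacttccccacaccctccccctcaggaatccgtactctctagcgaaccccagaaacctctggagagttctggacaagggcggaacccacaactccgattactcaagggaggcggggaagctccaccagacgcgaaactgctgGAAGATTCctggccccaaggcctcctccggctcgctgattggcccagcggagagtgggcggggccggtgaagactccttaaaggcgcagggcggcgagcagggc
Hspa1a: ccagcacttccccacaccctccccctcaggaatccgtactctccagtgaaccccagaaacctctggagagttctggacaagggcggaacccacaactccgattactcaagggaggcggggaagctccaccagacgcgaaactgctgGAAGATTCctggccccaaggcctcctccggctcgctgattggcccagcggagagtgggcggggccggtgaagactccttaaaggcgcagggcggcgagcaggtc
Dnajb4: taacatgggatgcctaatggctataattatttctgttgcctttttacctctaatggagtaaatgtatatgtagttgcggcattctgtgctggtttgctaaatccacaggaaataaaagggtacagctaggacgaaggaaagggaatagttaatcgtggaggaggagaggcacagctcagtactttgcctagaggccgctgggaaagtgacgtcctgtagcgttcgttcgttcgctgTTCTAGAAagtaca

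Chaperones of the endoplasmic reticulum (ER), where secreted and membrane proteins fold, were described with the sensors of the unfolded protein response. Of 26 tested members of this list, 11 were higher and 1 was lower, with a median of 0.26. Hspa5, the HSP70 of the ER and its central stress sensor, ranged from 304 to 487 CPM with a median of 384 in suspension and from 406 to 1437 CPM with a median of 697 in collagen. Collagen values were above suspension values within every replicate, and the log2 fold change was 0.95 (SE 0.15, adjusted p = 1.68e-04, edgeR). Dnajb9, a J-domain partner of Hspa5, rose by 1.18 (SE 0.17, adjusted p = 1.16e-04, edgeR). Xbp1, a transcription factor of the unfolded protein response that is activated by splicing of its mRNA, did not pass (log2 fold change 0.14, SE 0.15, adjusted p = 0.541, edgeR), and counts per gene do not show its splicing.

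The ER stress response element, CCAAT and CCACG separated by 9 bases, was searched in the same windows (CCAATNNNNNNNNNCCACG or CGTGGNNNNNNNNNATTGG). It was found in 0.113% of all promoters, in 0.140% of the tested genes, and in 9 of 23 matched list members. Of the 10 matched members that rose, 6 held it, namely Hspa5, Hsp90b1, Calr, Pdia6, Dnajc3, and Creld2. The windows of Hspa5 (chr2:34771840-34772089, plus strand) and of the disulfide isomerase Pdia6 (chr12:17266339-17266588, plus strand) are shown with the element in capitals.
Hspa5: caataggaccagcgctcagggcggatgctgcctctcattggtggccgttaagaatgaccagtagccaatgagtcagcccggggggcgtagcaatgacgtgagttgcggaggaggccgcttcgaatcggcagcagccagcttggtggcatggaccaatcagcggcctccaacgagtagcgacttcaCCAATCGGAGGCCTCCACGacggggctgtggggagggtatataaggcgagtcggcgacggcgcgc
Pdia6: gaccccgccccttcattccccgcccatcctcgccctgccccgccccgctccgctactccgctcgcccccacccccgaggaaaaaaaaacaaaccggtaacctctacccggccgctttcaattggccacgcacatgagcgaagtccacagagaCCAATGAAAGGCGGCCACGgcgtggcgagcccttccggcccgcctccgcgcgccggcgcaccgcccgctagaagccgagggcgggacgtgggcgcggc

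The integrated stress response couples amino acid shortage and ER stress to the transcription factor ATF4. Of 26 tested members, 10 were higher and 6 lower, with a median of 0.20. Atf4 itself (chromosome 15, 80255184 to 80257541) ranged from 109 to 410 CPM with a median of 178 in suspension and from 262 to 1205 CPM with a median of 626 in collagen. Its collagen values lay above both suspension values in every replicate, with a log2 fold change of 1.59 (SE 0.18, adjusted p = 1.97e-05, edgeR). The stress-induced chromatin protein Nupr1 rose equally (1.59, SE 0.26, adjusted p = 2.67e-04, edgeR). The 6 lower members were Asns, Chac1, Sesn2, Slc7a5, Aldh18a1, and Pck2, enzymes, a stress regulator, and a carrier of amino acid metabolism, chosen for mention after their values were seen. The call of Asns was lost without replicate 3 (log2 fold change −0.18, adjusted p = 0.494, edgeR). Of 20 aminoacyl-tRNA synthetases, which load amino acids onto tRNA and include ATF4 targets, 8 fell and none rose (median −0.15). Lars, the leucine enzyme, fell by 0.67 (SE 0.15, adjusted p = 0.00278, edgeR).

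Of 23 amino acid and metal transporters, 11 were higher and 3 lower (median 0.50). Slc38a2, which imports small neutral amino acids, rose from a median of 41.9 CPM (33.1 to 96.3) to 147 CPM (58.6 to 628), with a log2 fold change of 1.86 (SE 0.30, adjusted p = 2.77e-04, edgeR). Slc43a2, a carrier of large neutral amino acids, went the other way from a median of 97.7 CPM (42.1 to 225) to 41.7 CPM (10.9 to 90.2). Its log2 fold change was −1.35 (SE 0.19, adjusted p = 9.10e-05, edgeR). Both ranges overlapped between the groups.

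NRF2 is the transcription factor that switches on antioxidant and detoxifying enzymes. Of 23 genes in the NRF2 list, 11 rose and none fell (median 0.49). Hmox1, which degrades heme, ranged from 37.6 to 2083 CPM in suspension with a median of 118 and from 194 to 4773 CPM in collagen with a median of 703. The ranges overlapped, but within every replicate all collagen values lay above both suspension values. The log2 fold change was 2.45 (SE 0.35, adjusted p = 1.01e-04, edgeR), and the call was lost without the replicate block (adjusted p = 0.325). Txnrd1, a thioredoxin reductase, rose by 1.21 (SE 0.21, adjusted p = 4.85e-04, edgeR). The peroxidase Prdx1 rose by 1.31 (adjusted p = 1.85e-04) and the glutathione synthesis enzyme Gclc by 1.27 (adjusted p = 3.92e-04) in the edgeR test, again not without the block (adjusted p = 0.106 and 0.118). Nfe2l2, which encodes NRF2, was itself higher, with 66.0 CPM as the suspension median, 117 CPM as the collagen median, and a log2 fold change of 0.89 (adjusted p = 0.00204, edgeR).

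**Figure D4:**
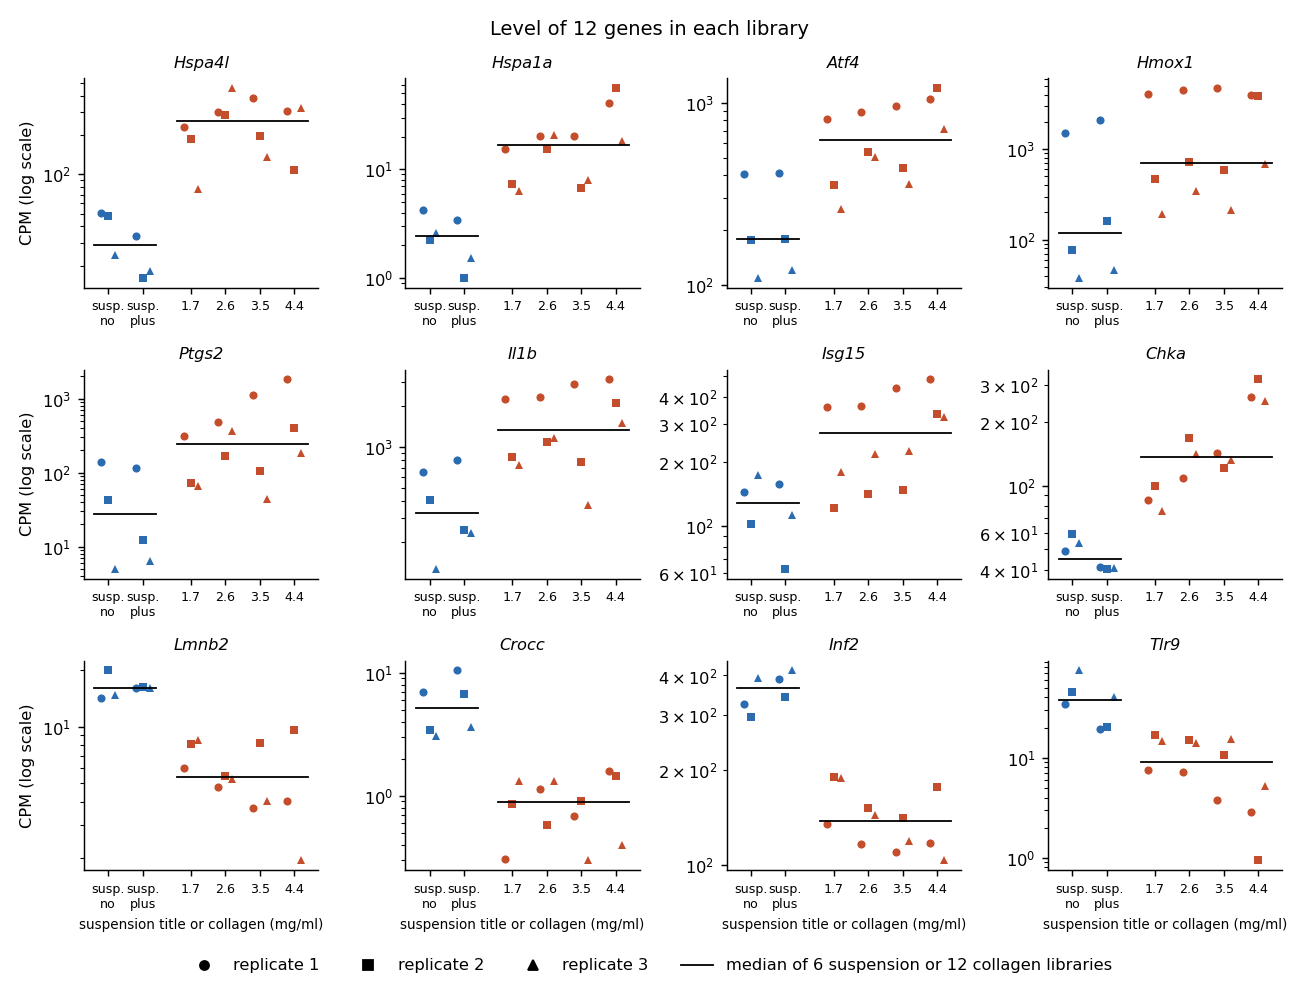
CPM (log axes) of 12 genes in each of the 18 libraries, with suspension in blue (groups titled without and plus CCL19), collagen in red by density (mg/ml), symbols for replicates, and lines at the group medians. Hspa4l, Hspa1a, and Chka lie higher and Crocc, Lmnb2, Inf2, and Tlr9 lower in all 12 collagen than in all 6 suspension libraries, while the ranges of Atf4, Hmox1, Ptgs2, Il1b, and Isg15 overlap across replicates.

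Targets of p53, which respond to DNA damage and other stress, included 8 higher and 3 lower genes of 20 (median 0.27). Gadd45a, a growth arrest protein, ranged from 2.96 to 9.54 CPM in suspension and from 10.7 to 47.2 CPM in collagen without overlap (log2 fold change 1.86, SE 0.24, adjusted p = 5.94e-05, edgeR). The death receptor gene Eda2r rose by 2.08 (SE 0.26, adjusted p = 4.08e-05, edgeR) and Mdm2, the ubiquitin ligase that restrains p53, by 1.35 (SE 0.25, adjusted p = 7.89e-04, edgeR). In the BCL2 family of apoptosis regulators, 5 of 17 rose and 3 fell (median 0.05). The share of lower genes, 17.6%, was close to the 19.3% over all tested genes. The killer protein gene Bid fell by 0.97 (SE 0.18, adjusted p = 8.84e-04, edgeR).

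Several inflammatory mediators were higher in collagen, with LPS maturation common to every group. Of 24 tested cytokine genes, 9 were higher and 1 was lower (median 0.70), and of 21 chemokine genes 9 were higher and none lower (median 0.74). Il1b, an alarm cytokine, ranged from 127 to 805 CPM with a median of 325 in suspension and from 373 to 3131 CPM with a median of 1329 in collagen. The groups overlapped, but not within any replicate, and the log2 fold change was 1.97 (SE 0.23, adjusted p = 2.60e-05, edgeR). Its relative Il1a rose by 2.12 (SE 0.31, adjusted p = 1.22e-04) and Il6 by 1.59 (SE 0.30, adjusted p = 8.29e-04) in the edgeR test. The neutrophil attractant Cxcl1 rose by 2.00 (SE 0.30, adjusted p = 1.38e-04, edgeR). Ccl3, which attracts monocytes and T cells, rose from a median of 31.6 CPM (13.9 to 44.2) to 80.9 CPM (35.9 to 345), a log2 fold change of 1.77 (SE 0.24, adjusted p = 8.40e-05, edgeR). Cxcl2 rose by 2.41 (adjusted p = 5.58e-04, edgeR), with an adjusted p of 0.149 without the block.

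Ptgs2, the inducible cyclooxygenase, went from 4.93 to 139 CPM (median 27.6) in suspension to 44.3 to 1836 CPM (median 247) in collagen, higher within every replicate (log2 fold change 3.20, SE 0.44, adjusted p = 8.46e-05, edgeR). Pla2g4a, the phospholipase that releases its substrate arachidonic acid, rose by 1.12 (SE 0.24, adjusted p = 0.00243, edgeR), and the prostaglandin E receptor Ptger2 rose by 1.49 (SE 0.27, adjusted p = 6.32e-04, edgeR). Over the eicosanoid list 4 of 16 genes rose and 2 fell (median 0.23). In the inflammasome list 4 of 14 rose and none fell (median 0.22), and the 4 included Il1b, given above, and Nlrc4, part of the inflammasome that responds to bacterial proteins (1.60, SE 0.30, adjusted p = 8.10e-04, edgeR). Nlrp3 had a log2 fold change of 0.08 (adjusted p = 0.799, edgeR).

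Immediate early genes encode short-lived transcription factors that respond within minutes to many stimuli. Of 25 tested, 17 rose and 2 fell (median 0.69). Ier3 ranged from 60.7 to 419 CPM in suspension and from 231 to 2649 CPM in collagen, above suspension within every replicate (log2 fold change 2.08, SE 0.28, adjusted p = 7.82e-05, edgeR). Klf4 rose by 2.11 (SE 0.34, adjusted p = 2.90e-04, edgeR) and Egr2 by 1.77 (SE 0.24, adjusted p = 6.82e-05, edgeR). Klf2, a related factor that restrains activation of myeloid cells, fell from a median of 10.9 CPM (6.24 to 28.5) to 4.18 CPM (2.47 to 6.36), below suspension within every replicate (log2 fold change −1.49, SE 0.23, adjusted p = 1.64e-04, edgeR). Among the phosphatases and RGS proteins that damp such signals, 8 of 20 rose and 3 fell (median 0.42), with Dusp8 higher by 1.53 (SE 0.37, adjusted p = 0.00514, edgeR). In the NF-kB list 4 of 22 rose and 2 fell (median 0.13). The atypical inhibitor Nfkbiz rose by 1.38 (SE 0.27, adjusted p = 0.00136, edgeR), while Nfkb1 had a log2 fold change of 0.12 (adjusted p = 0.629, edgeR).

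Few genes of antigen presentation passed the test. None of 13 tested MHC class II genes rose and 1 fell (median 0.16). H2-Ab1, a chain of the class II molecule, had medians of 3902 CPM in suspension and 4265 CPM in collagen (log2 fold change 0.29, SE 0.22, adjusted p = 0.353, edgeR). Of 15 MHC class I and immunoproteasome genes, 2 rose and 1 fell (median 0.19). In the costimulation and checkpoint list 7 of 16 rose and 1 fell (median 0.36), with Pdcd1lg2, the checkpoint ligand PD-L2, higher by 0.76 (SE 0.13, adjusted p = 5.65e-04, edgeR) and Tnfsf9, the ligand of 4-1BB, higher by 1.58 (SE 0.29, adjusted p = 7.88e-04, edgeR). Over the DC markers 6 of 25 tested rose and 2 fell (median 0.17), and over the chemokine receptors 3 of 12 rose and 4 fell (median 0.04). Flt3, the receptor for the DC growth factor FLT3L, fell by 1.09 on the log2 scale (SE 0.19, adjusted p = 5.18e-04, edgeR).

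Of 30 interferon-stimulated genes, the antiviral program, 8 were higher and 3 lower (median 0.22). Isg15, a ubiquitin-like modifier, ranged from 62.7 to 172 CPM (median 129) in suspension and from 121 to 485 CPM (median 273) in collagen, above suspension within every replicate (log2 fold change 1.07, SE 0.17, adjusted p = 1.88e-04, edgeR). Mx1, a GTPase against viruses, rose by 0.99 (SE 0.21, adjusted p = 0.00238, edgeR).

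Receptors for microbial products moved in both directions. Of 21 genes in the Toll-like receptor (TLR) list, 8 rose and 6 fell (median 0.11). Tlr9, the endosomal receptor for unmethylated CpG DNA, ranged from 19.2 to 74.7 CPM (median 37.6) in suspension and from 0.939 to 17.0 CPM (median 9.04) in collagen without overlap. It fell by 2.16 on the log2 scale (SE 0.23, adjusted p = 1.00e-05, edgeR). Tlr5, the flagellin receptor, was weak, at 0.410 to 1.86 CPM in suspension and 0 to 0.341 CPM in collagen, also without overlap (log2 fold change −4.49, SE 0.71, adjusted p = 3.35e-04, edgeR). Its estimate was −5.40 without replicate 2 at 4.4 mg/ml. Tlr2, the receptor for bacterial lipoproteins at the cell surface, rose from a median of 84.5 CPM (42.8 to 135) to 178 CPM (57.0 to 460) and was higher within every replicate (log2 fold change 1.33, SE 0.20, adjusted p = 1.41e-04, edgeR). In the C-type lectin and scavenger receptor list 10 of 19 rose and 1 fell (median 0.59). Clec4e, which recognizes mycobacterial glycolipid and dead cells, rose by 1.89 (SE 0.25, adjusted p = 6.82e-05, edgeR). Stab1, a scavenger receptor, fell by 1.10 (SE 0.22, adjusted p = 0.00135, edgeR).

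Part of this list also marks macrophages. Of 19 macrophage markers 10 were higher in collagen and none lower (median 0.51), and the scavenger receptor Msr1 rose by 1.52 (SE 0.27, adjusted p = 5.65e-04, edgeR). The median of the list was 0.06 against one suspension group and 0.94 against the other, and its sums overlapped between the groups, as given above. The part of macrophage content in the rise of receptors and cytokines was not tested.

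Of the 11 eosinophil markers 9 were tested, and all 9 were lower (median −3.16). Prg2, the major basic protein of eosinophil granules (chromosome 2, 84980461 to 84983632), ranged from 83.7 to 1078 CPM with a median of 277 in suspension and from 7.40 to 134 CPM with a median of 31.5 in collagen. Within every replicate all collagen values lay below both suspension values. The log2 fold change was −3.16 (SE 0.45, adjusted p = 9.89e-05, edgeR). The eosinophil peroxidase gene Epx fell by 3.11 (SE 0.38, adjusted p = 3.55e-05) and the lipoxygenase gene Alox15 by 3.88 (SE 0.35, adjusted p = 5.33e-06) in the edgeR test. The eotaxin receptor gene Ccr3 ranged from 1.94 to 9.42 CPM in suspension and from 0 to 0.823 CPM in collagen without overlap (log2 fold change −3.60, SE 0.47, adjusted p = 6.44e-05, edgeR). The eosinophil ribonuclease genes Ear1 and Ear6 fell by 4.73 and 3.21 (adjusted p = 9.10e-05 and 5.55e-06, edgeR), although reads of this family cannot be assigned with certainty. The part of eosinophil content in other changes was not tested. Ear1 fell by 4.14 without replicate 3 of the suspension group titled without CCL19. Among neutrophil markers 5 of 16 fell and none rose (median −0.26, and 0.19 with the suspension group titled without CCL19 as the only control). Cxcr2, the neutrophil chemokine receptor, fell by 1.62 (SE 0.36, adjusted p = 0.00297, edgeR). Of 9 basophil and mast cell markers 3 fell and 1 rose, of 6 lymphocyte markers 1 fell, of 7 fibroblast markers 2 rose, and the 1 erythroid marker tested was not called.

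Of 33 genes of the adhesion complex that links integrins to actin, 6 fell and 1 rose (median −0.14, and 0.06 with the GC and length offsets). The share of lower genes, 18.2%, was close to the 19.3% over all tested genes. Tln1, the talin that activates integrins, fell from a median of 924 CPM (766 to 1158) to 577 CPM (451 to 881), with a log2 fold change of −0.64 (SE 0.14, adjusted p = 0.00335, edgeR). The call was lost without replicate 1. Vinculin (Vcl) had a log2 fold change of −0.17 (SE 0.20, adjusted p = 0.568, edgeR). Of 19 integrin genes 3 rose and 4 fell (median −0.12). Itgb7, a chain of a gut-homing integrin, fell by 1.37 (SE 0.19, adjusted p = 9.70e-05, edgeR), and Itgb2, the main leukocyte integrin chain, had a log2 fold change of 0.03 (adjusted p = 0.900, edgeR).

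Of 33 actin assembly genes 6 rose and 4 fell (median 0.13), and Actb, the major actin, did not pass (−0.03, SE 0.20, adjusted p = 0.922, edgeR). The formin Inf2, which nucleates and severs actin filaments (chromosome 12, 112588784 to 112615557), ranged from 296 to 415 CPM (median 366) in suspension and from 103 to 191 CPM (median 138) in collagen without overlap. Its log2 fold change was −1.37 (SE 0.14, adjusted p = 5.99e-06, edgeR). The leukocyte formin Fmnl1 fell by 0.66 (SE 0.13, adjusted p = 0.00173, edgeR), and Dbnl, an actin-binding adaptor, by 0.91 (SE 0.16, adjusted p = 5.39e-04, edgeR). In the contractility list 4 of 30 rose and 9 fell (median 0.08, with the sign changing in 3 settings). Mylk, the myosin light chain kinase, fell by 1.03 (SE 0.18, adjusted p = 4.60e-04, edgeR) and Limk1, which acts on the actin severing protein cofilin, by 0.82 (SE 0.15, adjusted p = 8.25e-04, edgeR). Of 24 mechanosensitive and ion channel genes 4 rose and 3 fell (median −0.04), with the calcium channel Trpv4 at a log2 fold change of −0.76 (SE 0.16, adjusted p = 0.00227, edgeR).

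The nuclear envelope and the centrosome, structures that are deformed when cells pass narrow pores, held several genes that fell. Of 14 nuclear envelope and LINC complex genes 5 fell and none rose (median −0.26, and −0.08 with the GC and length offsets). The share of lower genes was 35.7%, compared with 19.3% over all tested genes, and without the replicate block 2 fell. Lmnb2, a B-type lamin of the nuclear lamina (chromosome 10, 80901203 to 80918245), ranged from 14.1 to 19.9 CPM (median 16.0) in suspension and from 1.95 to 9.65 CPM (median 5.38) in collagen without overlap, and its log2 fold change was −1.55 (SE 0.21, adjusted p = 8.50e-05, edgeR). Syne1, which ties the nucleus to the cytoskeleton, fell by 0.97 (SE 0.22, adjusted p = 0.00319, edgeR). Lmna, the A-type lamin, had a log2 fold change of 0.02 (SE 0.26, adjusted p = 0.970, edgeR). Of 28 centrosome genes 9 fell (32.1%) and 2 rose (median −0.34, and −0.22 with the GC and length offsets). Crocc, the main protein of the rootlet that links centrioles (chromosome 4, 141016637 to 141060550), ranged from 3.07 to 10.4 CPM (median 5.17) in suspension and from 0.298 to 1.58 CPM (median 0.884) in collagen. These ranges did not overlap, and the log2 fold change was −2.55 (SE 0.34, adjusted p = 6.82e-05, edgeR). Cep250, which anchors the rootlet to the centriole, fell by 1.33 (SE 0.17, adjusted p = 4.02e-05, edgeR). The kinase gene Dyrk3 rose by 1.63 (SE 0.25, adjusted p = 1.71e-04, edgeR) and the centriole assembly gene Stil by 1.55 (SE 0.29, adjusted p = 9.26e-04, edgeR).

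Matrix remodelling genes rose in 8 and fell in 3 of 32 cases (median 0.34). The plasminogen activator inhibitor Serpinb2 rose from a median of 14.9 CPM (10.9 to 28.3) to 64.9 CPM (21.2 to 123), a log2 fold change of 1.85 (SE 0.30, adjusted p = 3.18e-04, edgeR), and Timp3, an inhibitor of metalloproteinases, rose by 1.69 (SE 0.27, adjusted p = 2.28e-04, edgeR). The membrane-anchored metalloproteinase gene Mmp25 was among the strongly expressed genes that fell, from 686 to 1078 CPM (median 856) to 349 to 748 CPM (median 514), with a log2 fold change of −0.76 (SE 0.15, adjusted p = 0.00170, edgeR).

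Of 51 genes of cytosolic ribosomal proteins, the protein part of the translation machinery, 34 rose and none fell (median 0.55), but these genes made up only 0.938 to 2.15% of the counts in suspension and 1.26 to 2.13% in collagen, and many have near-identical pseudogenes with which they share reads, so their levels are uncertain. Ribosome biogenesis genes fell in 11 and rose in 3 of 30 cases (median −0.25, and 0.03 with the suspension group titled plus CCL19 as the only control). Mybbp1a, a nucleolar protein, fell from a median of 136 CPM to 84.7 CPM (log2 fold change −0.89, SE 0.14, adjusted p = 1.96e-04, edgeR). The nucleolar GTPase gene Gnl3 rose without overlap, from 4.497 to 9.25 CPM to 9.46 to 34.9 CPM (log2 fold change 1.42, SE 0.21, adjusted p = 1.43e-04, edgeR). Splicing and nuclear speckle genes rose in 11 and fell in 1 of 25 cases (median 0.44), led by Luc7l3, a factor of splice site choice (1.45, SE 0.24, adjusted p = 3.48e-04, edgeR).

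In energy and lipid metabolism, nuclear genes of oxidative phosphorylation rose in 9 (27.3%, compared with 15.6% of all tested genes) and fell in 1 of 33 cases (median 0.33). Of 7 genes of the mitochondrial genome 3 rose (median 0.55, and −0.05 with the GC and length offsets). mt-Co1, a subunit of cytochrome c oxidase, rose from a median of 1937 CPM (802 to 3811) to 5085 CPM (2722 to 7096), a log2 fold change of 1.36 (SE 0.25, adjusted p = 6.36e-04, edgeR). The share of all counts from the mitochondrial genome was 0.583 to 1.68% in suspension and 0.832 to 2.90% in collagen, and the part of RNA quality in it was not tested. Glycolysis and hypoxia genes rose in 9 and fell in 2 of 35 cases (median 0.43). Sterol and fatty acid synthesis genes fell in 11 and rose in 1 of 30 cases (median −0.34). Acaca, which commits acetyl-CoA to fatty acids, fell by 1.29 (SE 0.17, adjusted p = 7.05e-05, edgeR). LXR target and lipid export genes were 3 higher and 3 lower of 19 (median 0.10), with the lipoprotein lipase gene Lpl higher by 0.95 (SE 0.22, adjusted p = 0.00467, edgeR).

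Phosphatidylcholine, the main membrane lipid, is made from choline that choline kinase phosphorylates. Chka, which encodes this kinase (chromosome 19, 3851773 to 3894369), ranged from 40.2 to 59.1 CPM with a median of 45.2 in suspension and from 76.2 to 320 CPM with a median of 137 in collagen. No collagen library reached down to a suspension library. The log2 fold change was 1.63 (SE 0.14, adjusted p = 5.33e-06, edgeR). Of the 13 genes of the pathway 2 rose (15.4%) and 3 fell (23.1%), close to the 15.6 and 19.3% over all tested genes. Their median was 0.12, with the sign changing in 2 settings. The acyltransferase gene Lpcat1, which remodels the same lipid, had a log2 fold change of −0.96 (SE 0.16, adjusted p = 3.92e-04, edgeR).

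Among genes of degradation, 13 of 36 lysosome genes rose (36.1%) and 1 fell (median 0.33). The proton pump subunit gene Atp6v1b2 rose without overlap from 333 to 389 CPM in suspension to 427 to 762 CPM in collagen (log2 fold change 0.71, SE 0.13, adjusted p = 8.25e-04, edgeR). Of 31 proteasome genes 5 rose and none fell (median 0.20), and the share of higher genes, 16.1%, was close to the 15.6% over all tested genes. Of 33 cell cycle genes 24 were not called, 3 were higher, and 6 lower (median −0.16). Pcna, the DNA polymerase clamp, rose by 0.99 (SE 0.14, adjusted p = 8.46e-05, edgeR), whereas the helicase subunit Mcm3 fell by 0.73 (SE 0.16, adjusted p = 0.00338, edgeR) and the proliferation marker Mki67 did not pass (0.59, SE 0.28, adjusted p = 0.128, edgeR). Of 8 replication-dependent histone genes 3 rose, and 1 without the block (median 0.41, and −0.07 with the suspension group titled plus CCL19 as the only control). Of 5 apolipoprotein L genes 2 rose (median 1.16). Both are families with similar copies whose counts are uncertain. The plot of all lists sets these counts side by side.

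**Figure D5:**
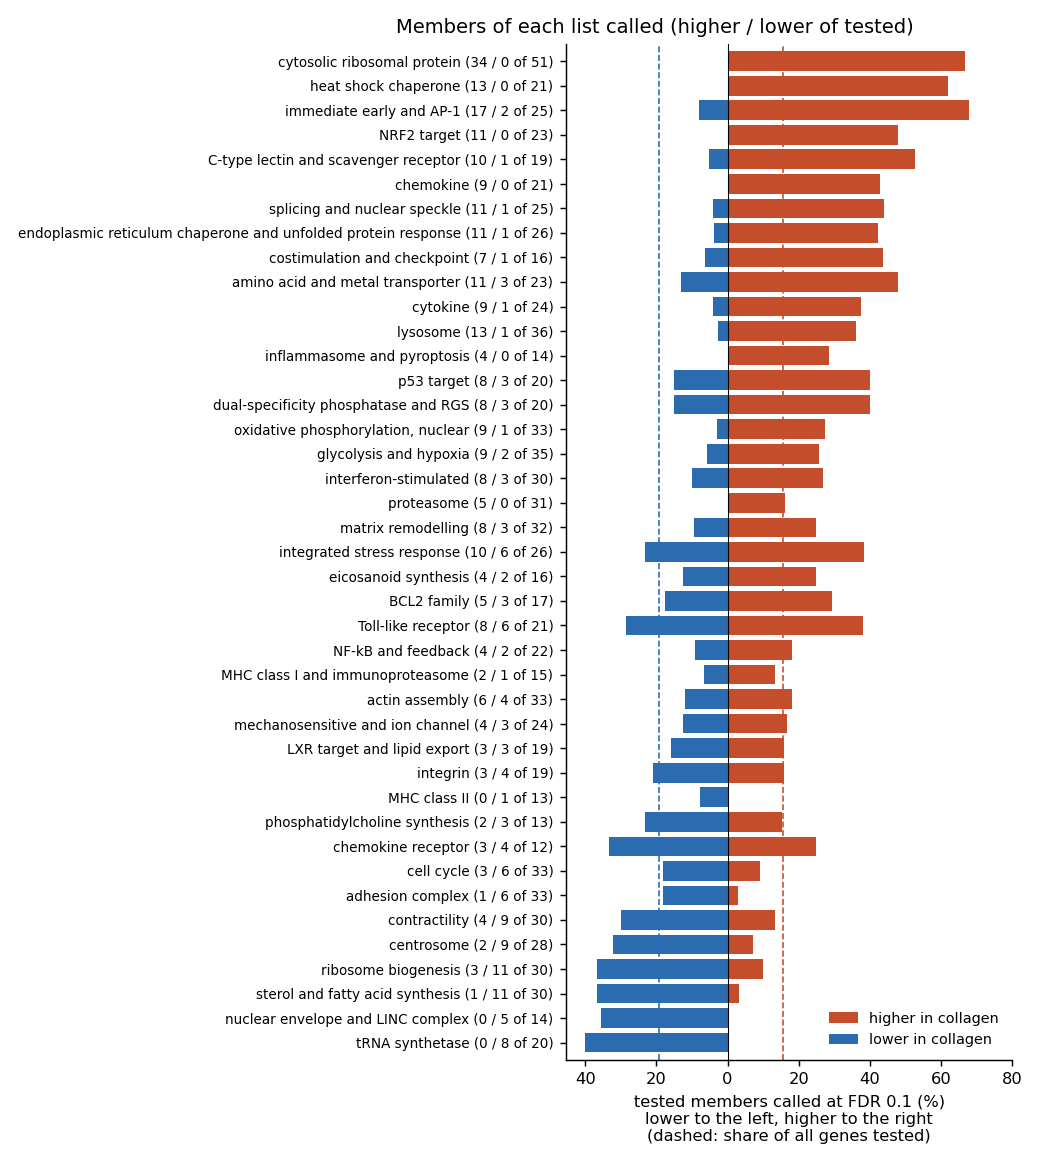
Percent of the tested members of each pathway list with 10 or more tested members that were higher (red, to the right) or lower (blue, to the left) in collagen at an FDR of 0.1, with counts beside the list names and dashed lines at 15.6 and 19.3%, the shares over all tested genes. Cytosolic ribosomal protein, heat shock, and immediate early lists have the longest bars to the right, and the tRNA synthetase list, with 8 of 20 lower, the longest to the left.

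In several other lists the share called in a direction was also close to that over all tested genes. Higher members made up 18.2% of the NF-kB list and of the actin assembly list and 16.7% of the ion channel list. They made up 15.8% of the integrin list and of the LXR list. Lower members made up 21.1% of the integrin list, 18.2% of the cell cycle list, and 17.6% of the BCL2 family list. They made up 15% of the p53 target list and 23.1% of the integrated stress response list. The share of higher genes also grew with level, to 24.2% from 10 to under 100 CPM per kilobase and 33.0% at 100 or more. Lists were not set against genes of the same level. Shares such as 27.3% of the nuclear oxidative phosphorylation list and 36.1% of the lysosome list carry that limit.

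Without the replicate block the counts of called members moved by over 1.5 times in most lists. Cytosolic ribosomal protein genes then rose in 14 rather than 34 cases, immediate early and AP-1 genes in 7 rather than 17, NRF2 target genes in 4 rather than 11, lysosome genes in 4 rather than 13, endoplasmic reticulum chaperone genes in 4 rather than 11, and macrophage markers in 2 rather than 10. Genes of glycolysis and hypoxia lost all 9 higher and both lower calls. Interferon-stimulated genes rose in 2 rather than 8 cases, sterol and fatty acid synthesis genes fell in 6 rather than 11, and tRNA synthetase genes fell in 4 rather than 8. Heat shock chaperone genes still rose in 9 cases against 13, and eosinophil markers fell in 9 cases in both fits. The median of the chemokine receptor list changed sign in 7 alternative settings, that of the Toll-like receptor list in 8, and those of the BCL2 family, contractility, and ion channel lists in 3 each, so that no direction is given for these lists.

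The following genes were among those with the greatest log2 fold in each level class. Among genes under 1 CPM per kilobase, Apol8, a member of the apolipoprotein L list, had 290 counts over the 12 collagen libraries and 1 over the 6 suspension libraries, a depth-scaled ratio of 155 with a counting interval of 27.5 to 6123 (95%, counting error only). Its log2 fold change was 5.99 (SE 0.91, adjusted p = 2.31e-04, edgeR), and 7.03 without the suspension library that held the 1 count. Dnah12, an axonemal dynein chain, had 147 counts in 10 collagen libraries and 0 in suspension, at least 26.1-fold higher against a floor of 3 counts over the suspension group. Iqsec3, an exchange factor for ARF GTPases, had 178 and 0 counts and was at least 31.6-fold higher, but its call was lost without replicate 1 at 3.5 mg/ml (log2 fold change 4.54, adjusted p = 1.00, edgeR) and without all of replicate 1.

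Among genes from 1 to under 10 CPM per kilobase, 3 of the 4 greatest rises showed no overlap between the groups. All collagen libraries lay above all suspension libraries in 0.506% of all tested genes. The 4 were selected for size and sign in these same libraries, so their lack of overlap is a description only. Trim69, a ubiquitin ligase of the TRIM family, went from 0 to 0.358 CPM in suspension to 0.420 to 9.70 CPM in collagen (log2 fold change 4.19, SE 0.53, adjusted p = 4.88e-05, edgeR), and its estimate was 5.83 without replicate 1 of the suspension group titled without CCL19. Tal2, a helix-loop-helix factor, went from 0.153 to 0.957 CPM to 1.37 to 11.3 CPM (3.91, SE 0.47, adjusted p = 2.80e-05, edgeR). Tlcd2, a regulator of membrane lipid composition, went from 0.572 to 2.56 CPM to 3.15 to 39.9 CPM (3.58, SE 0.32, adjusted p = 5.33e-06, edgeR).

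From 10 to under 100 CPM per kilobase, the organic anion transporter Slco4a1 rose from a median of 40.8 CPM (8.29 to 91.0) to 220 CPM (44.1 to 698) with a log2 fold change of 2.95 (SE 0.29, adjusted p = 5.99e-06, edgeR). In the same class Dennd4b, an exchange factor for RAB GTPases, fell without overlap from 95.9 to 156 CPM (median 122) to 21.2 to 67.8 CPM (median 43.0), a log2 fold change of −1.48 (SE 0.17, adjusted p = 1.83e-05, edgeR). Adgre5, the adhesion receptor CD97, fell from a median of 68.9 CPM (42.9 to 114) to 29.4 CPM (10.9 to 49.0), below suspension within every replicate (log2 fold change −1.40, SE 0.15, adjusted p = 9.84e-06, edgeR). At 100 or more, the actin crosslinker Flna, of the adhesion complex list, fell by 0.74 (SE 0.17, adjusted p = 0.00340, edgeR), and without the block its adjusted p was 0.157. The only other falls named by size in that class were Prg2, Dbnl, and Mmp25, described above.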

How the data were processed

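The file deposited by the authors holds raw counts of reads for each Ensembl gene in 18 RNA sequencing libraries, whole numbers without normalization. Per their methods, single-end reads of 50 bases from stranded mRNA libraries were aligned with STAR 2.7.0f to GRCm38. RSEM is named there for TPM values and DESeq2 for differential expression at an FDR of 0.1. The tool that made the deposited counts and the treatment of reads with several matches are not given in the sources used here.

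The titles of the samples gave their groups and replicate numbers. All 18 libraries and 6 groups entered 1 fit in edgeR 4.0.16 (R 4.3.3, limma 3.58.1), with filterByExpr, TMM scaling, and the replicate number as a block. The contrast was the mean of the 4 collagen groups minus the mean of the 2 suspension groups, tested with the quasi-likelihood F-test and Benjamini-Hochberg adjustment at an FDR of 0.1. The F statistic gave the standard errors. DESeq2 1.42.0 was an alternative. The replicate numbers pair the libraries through the date and lane in the library names, with a mean r of 0.43 over 45 pairs of one number (−0.15 to 0.85) and −0.21 over 90 other pairs. Deviations within a group cancel each other, so the negative mean r carries no separate information. The biological coefficient of variation was 33.1%. None of the library pairs held identical counts.

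The comparison, the 52 gene lists (1130 genes), and the rule for named genes were chosen with earlier results of these data known. The rule took the 4 greatest rises and falls among protein-coding genes in each of 4 level classes that had the same sign in 3 of 3 replicates, up to 4 called members of each list, and members whose role defines a list. Some of the genes so chosen are not reported here. The members chosen for their role were picked after their values had been seen, as were the description within replicates and the promoter motifs. Of the list symbols, 3 were matched as older symbols and 15 were not in the table. No set test was run, and each list is described by its counts and median. Promoters were taken from RefSeq (GRCm38.p6). The fit was tested on simulated data. Alternatives covered the block, the tool, scaling, filters, threshold, controls, loess offsets for GC content and length (span 0.5), and the omission of libraries.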

Additional observations from a re-analysis of the deposited data

Results flagged for a closer look

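Of 41 quantities examined within a group, 39 could be tested for a single distant library with Dixon's ratio, the gap of the highest or lowest sample to its neighbor divided by the whole range. The ratio exceeded Dixon's 95% critical value for 6 samples in 5 cases, all among the suspension libraries, and chance alone flags about 1 in 20 groups. Apol8 had a ratio of 1, because replicate 3 of the group titled without CCL19 held its 1 suspension count (0.058 CPM) and the other libraries none. Ppp1r26 had a ratio of 0.799, with 2.32 CPM in replicate 3 of the group titled plus CCL19 and 0.580 to 0.932 CPM in the others. Tal2 had a ratio of 0.662, with 0.957 CPM in replicate 2 of the group titled without CCL19 and 0.153 to 0.425 CPM in the others. In replicate 2 of the group titled plus CCL19, Epx stood at 163 CPM against 19.4 to 71.8 CPM elsewhere (ratio 0.636) and Nfe2, a transcription factor of blood cell formation, at 160 CPM against 16.1 to 58.8 CPM (ratio 0.703). That library also had the highest sums of eosinophil markers (1385 CPM) and neutrophil markers (19389 CPM). The part of these cells in the values was not tested. The estimate of Apol8 was 7.03 without its single library, compared with 5.99. All 5 genes kept their direction and their call with any 1 of the 18 libraries left out.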

How the results depend on the processing

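The fit with the replicate block called 4823 genes and the fit without it 2790 (1077 higher and 1713 lower), and 2789 genes were called by both with the same direction. DESeq2 called 5326 genes with the block and 3368 without it (1609 higher and 1759 lower). With the suspension group titled without CCL19 as the only control, 1258 genes were higher. Leaving out 1 replicate gave 2690 to 3739 called genes (1320 to 1776 higher, 1370 to 2092 lower), with the lowest counts in each case without replicate 1. Leaving out 1 library gave 3839 to 5401 called genes (1617 to 2462 higher, 2141 to 2939 lower). At an FDR of 0.05, 3647 genes were called. Without a filter on low counts 4521 were called, of which 4013 are shared with the filtered fit. The other alternatives kept these counts within 1.5 times. Among 7536 values of 229 named genes, 6981 kept their direction and side of the threshold or were called in neither fit, 532 no longer passed, 22 newly passed, and 1 reversed, and a further 21 could not be computed. Many of the settings left out only 1 of the 18 libraries. By setting, the losses numbered 66 without the replicate block, 49 in DESeq2 without it, and 43 without replicate 1. They numbered 48 and 43 with the suspension group titled plus or without CCL19, respectively, as the only control. The reversal was Prss34, a mast cell and basophil protease (log2 fold change −0.82). Its estimates ran from −1.29 to 0.077 over 33 alternative settings, with the positive value (adjusted p = 0.830, edgeR) without replicate 3. The causes were not tested. Low counts limit genes under 1 CPM per kilobase, where the median standard error was 0.42.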

Other observations

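A few weakly expressed genes outside the pathway lists had large estimates that rested on few libraries. Ucp1, the uncoupling protein of brown fat mitochondria, ranged from 0 to 0.415 CPM (median 0.0966) in suspension and from 0 to 11.4 CPM (median 1.01) in collagen. It rose by 3.47 on the log2 scale (SE 0.88, adjusted p = 0.00779, edgeR) with all libraries and 2.65 (adjusted p = 0.0484, edgeR) without replicate 1 at 3.5 mg/ml, and the call was lost without all of replicate 1. Fam209 had 132 counts in 8 collagen libraries and 3 in suspension, a ratio of 23.4 with a counting interval of 7.85 to 115, and was not called without replicate 2 at 1.7 mg/ml (log2 fold change 3.53, adjusted p = 1.00, edgeR) or without replicate 1 at 3.5 mg/ml (3.20, adjusted p = 1.00, edgeR). Zfp831, a zinc finger gene, fell from 0.174 to 1.46 CPM in suspension to 0 to 0.372 CPM (median 0.0627) in collagen, a log2 fold change of −3.14 (SE 0.70, adjusted p = 0.00373, edgeR), and kept its call in every alternative that gave a value.

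Both of the following secreted proteins were higher in the collagen libraries. Inhba, a subunit of activin, ranged from 4.41 to 212 CPM (median 53.2) in suspension and from 44.8 to 1058 CPM (median 205) in collagen, with a log2 fold change of 2.43 (SE 0.41, adjusted p = 3.92e-04, edgeR). Spp1, the secreted matrix protein osteopontin, rose by 1.35 (SE 0.32, adjusted p = 0.00520, edgeR). Without the replicate block neither was called (adjusted p = 0.133 and 0.138, edgeR).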
